A study of Homo sapiens with 66 samples.

Results

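The response of NB-4 cells to etoposide was compared with that of HL-60 cells, gene by gene. For each gene the log2 fold change of etoposide over untreated libraries in HL-60 was subtracted from the same fold change in NB-4. The result is called the log2 difference here: a value of 1 means that the fold change in NB-4 was 2 times that in HL-60. The 12 libraries of these cell lines were chosen by their labels, out of 66 libraries from 11 acute myeloid leukemia cell lines. There were 4 groups of 3 libraries, untreated HL-60, etoposide-treated HL-60, untreated NB-4 and etoposide-treated NB-4.

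Etoposide poisons topoisomerase II, the enzyme that cuts and rejoins both DNA strands, and leaves breaks in the DNA. HL-60 and NB-4 are human leukemia cell lines blocked at the promyelocyte stage, the neutrophil precursor that fills its granules with proteases. NB-4 carries the PML-RARA fusion of acute promyelocytic leukemia, while HL-60 lacks it. DNA breaks are known to act on damage response genes, on NF-kB through the kinase ATM, and on interferon-stimulated genes when DNA reaches the cytosol.

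Cells were exposed for 24 h, each cell line at its own half-maximal inhibitory concentration, and the study calls the sequenced controls untreated. The concentrations were thus not the same in both cell lines, and the effect of concentration and that of the cell line cannot be told apart. For each library the study's methods combined 3 wells of cells before RNA was taken, and stranded libraries of polyadenylated RNA were sequenced. Each cell line is 1 culture line, so the p-values measure the spread between these libraries and not between patients.

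The libraries held between 18261596 and 21541218 reads on genes, with a median of 19979839. MPO, the peroxidase of neutrophil granules, stood at 7209 to 7553 CPM in untreated HL-60 and 15295 to 18414 in untreated NB-4, where CPM is the share of a gene in the reads of a library after scaling to 1 common size. Of the other precursor markers, AZU1, PRTN3, CTSG, CD33 and MYB were also read in each group, while ELANE had 6 reads in the 12 libraries. The summed lymphoid markers were between 3.30 and 4.32 CPM in untreated HL-60 and 25.7 and 28.8 in untreated NB-4, and between 7.45 and 10.6 and 47.7 and 56.4 after etoposide. The B cell receptor chain CD79B (15.8 CPM in untreated NB-4) made up much of the sum, MS4A1 had 0 reads, and the part of these genes in the results was not tested. In bulk RNA of this kind fewer cells of a type and less RNA per cell cannot be told apart. The epithelial antigen EPCAM was read in NB-4 at 10.8 CPM and had 0 reads in HL-60. Of 9 erythroid and megakaryocytic markers, 6 had 0 reads, HBB and PF4 among them. Of 42 genes at 20 CPM or more in untreated HL-60 with 0 reads in untreated NB-4, 26 also had 0 reads in treated NB-4, and of 45 genes in the reverse direction 30 had 0 reads in treated HL-60. The highest level in treated NB-4 among the former was 0.572% of that in treated HL-60. In the reverse direction the highest was 0.254%. IGSF10, given below among the largest differences, belongs to the former.

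Several libraries stood apart within their groups for some lists. In etoposide-treated HL-60, replicate 3 was the highest of the 3 libraries for 18 of 22 genes of the TNF and NF-kB list and the lowest for 21 of 23 genes of the cholesterol synthesis list. Replicate 1 was the lowest for 20 of 22 genes of the TNF and NF-kB list in untreated NB-4 and also in treated NB-4, where it was the lowest for 22 of 22 immediate early genes. In untreated HL-60, replicate 2 was the highest for 19 of 20 genes of the ATF4 list and the lowest for 20 of 23 of the cholesterol list, and replicate 1 was the highest for 29 of 34 S phase genes.

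Of 14864 genes tested, 1059 passed an adjusted p of 0.05 (edgeR's quasi-likelihood test, Benjamini-Hochberg) with a difference above 2-fold, which is 7.12%. The difference was positive, that is higher in NB-4, for 683 genes (4.59%) and negative for 376 (2.53%). The median log2 difference over all genes was -0.035. In NB-4 itself 2661 genes were called (17.9%), of which 1956 rose (13.2%) and 705 fell (4.74%). In HL-60 1074 genes were called (7.23%), of which 877 rose (5.90%) and 197 fell (1.33%). Scaled by library size alone, the difference was higher in NB-4 for 827 genes and lower for 260, a share of 76.1% higher in place of 64.5%, and the median log2 difference moved to 0.077.

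The 683 differences higher in NB-4 were mostly genes that rose there and were not called in HL-60, 474 genes or 69.4%. Another 72 (10.5%) rose in both cell lines, more in NB-4, and 36 fell in HL-60 only. The 376 differences lower in NB-4 were more mixed. Of these, 156 (41.5%) fell in NB-4 only, 118 (31.4%) rose in HL-60 only and 19 rose in both. Across all genes 540 rose in both cell lines and 64 fell in both. Only 15 genes were called in opposite directions, of the 619 called in both.

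**Figure D1:**
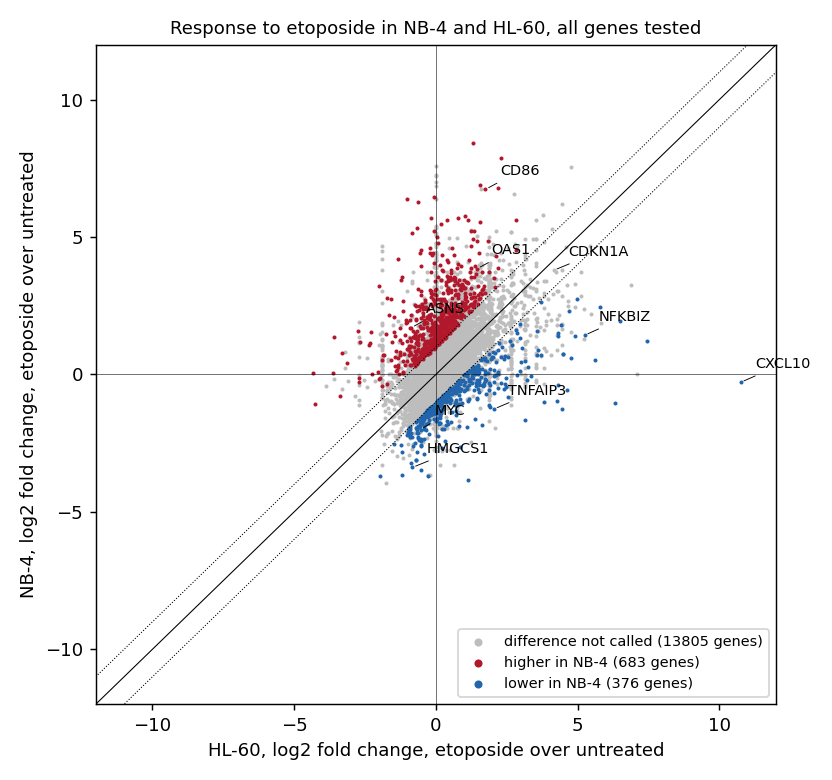
Each point is 1 of the 14864 genes tested, with the log2 fold change of etoposide over untreated in HL-60 on the x axis and in NB-4 on the y axis. The solid line marks equal fold changes and the dotted lines a log2 difference of 1 either way. The 683 genes in red lie above the lines and the 376 in blue below, and CXCL10 stands alone at the right edge.

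The 24 gene lists described here differed in which cell line had the larger response. The TNF and NF-kB list and the chemokine list had median log2 differences of -2.04 and -1.61, the lowest of the lists. The interferon-stimulated list stood at the other end with 0.89, followed by the replication-dependent histones with 0.85, the 6 NADPH oxidase genes with 0.69 and the ATF4 list with 0.57. The G2/M list, by contrast, had a median log2 difference of 0.066, and 0 of its 30 genes were called.

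Among the 24 lists the TNF and NF-kB list had the lowest median log2 difference. Many of its genes rose in HL-60 and by less, or not past the test, in NB-4. For several of them the untreated level was already higher in NB-4, as the values below show, though BIRC3 was lower there. NF-kB is a family of transcription factors held in the cytosol by inhibitor proteins until a signal removes them. Many of its targets feed back on the pathway, as inhibitors or as subunits, and others encode cytokines and chemokines that call in neutrophils and T cells. Of 22 genes of this list tested, 14 had a difference lower in NB-4, against 2.53% of all genes, and 1, IL1B, had a difference higher in NB-4. In HL-60 16 rose and 0 fell, beside 5.90% and 1.33% of all genes. In NB-4 9 rose and 1 fell, beside 13.2% and 4.74%.

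TNFAIP3 encodes A20, an enzyme that switches off NF-kB signalling. It was at 29.0, 34.6 and 35.1 CPM in untreated HL-60 and 117, 103 and 187 in treated HL-60. In NB-4 it was at 99.2, 147 and 221 CPM untreated and 56.7, 68.6 and 69.6 treated. The groups of either cell line did not overlap, and they moved in opposite directions. The log2 difference was -3.30 ± 0.32 (SE, adjusted p = 2.43e-06).

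NFKBIA, the inhibitor of NF-kB that is itself an early target, was at 24.6, 26.0 and 30.3 CPM in untreated and 59.9, 60.6 and 113 in treated HL-60. Levels in NB-4 were 66.1, 84.3 and 96.9 CPM untreated and 42.7, 57.0 and 58.1 treated. All treated libraries were above the untreated ones in HL-60 and below them in NB-4, where the log2 fold change of -0.65 was short of a 2-fold change. NB-4 minus HL-60 gave a log2 difference of -2.18 ± 0.28 (adjusted p = 4.83e-05).

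The NF-kB subunit RELB was at 3.00, 5.28 and 4.97 CPM in untreated and 43.1, 46.6 and 85.2 in treated HL-60. In NB-4 it was at 14.4, 22.1 and 23.8 CPM untreated and 23.7, 33.7 and 40.0 treated, so that its groups met there at 23.8 and 23.7. The log2 difference was -3.03 ± 0.38. The subunit genes NFKB2 and NFKB1 had log2 differences of -2.57 ± 0.31 and -1.09 ± 0.16. Both rose in HL-60 only. NFKB1 lost its call when libraries were scaled by size alone, when the filter was raised to a 5 CPM mean, and when replicate 3 of treated HL-60 was left out.

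The cytokine genes TNF and LTB had low levels in HL-60. TNF was at 0.559, 0.956 and 0.719 CPM in untreated and 2.43, 4.03 and 6.07 in treated HL-60, against 12.3, 16.1 and 16.8 in untreated and 7.38, 15.1 and 10.2 in treated NB-4. Even after treatment each HL-60 library was below each NB-4 library. LTB, which encodes lymphotoxin beta, had a log2 difference of -4.69 ± 0.84, with 4 reads over the 3 untreated HL-60 libraries and 90 over the treated. BCL3, an atypical inhibitor that can also activate NF-kB targets, rose in both cell lines, with log2 fold changes of 4.91 in HL-60 and 1.39 in NB-4. ICAM1, an adhesion molecule for leukocytes, also rose in both, from 1.67 ± 0.47 to 19.8 ± 3.44 CPM (mean ± SD, n = 3) in HL-60 and from 63.2 ± 15.3 to 189 ± 26.4 in NB-4. Its treated level was thus higher in NB-4, although its fold change was larger in HL-60.

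NFKBIZ, an inducible nuclear partner of NF-kB outside the list, was at 1.27, 1.81 and 1.55 CPM in untreated and 63.7, 36.2 and 76.4 in treated HL-60. The NB-4 values were 15.1, 16.1 and 22.8 CPM untreated and 44.1, 49.2 and 51.5 treated. Treated levels overlapped between the cell lines, while the untreated level was lower in each HL-60 library. This gave a log2 difference of -3.82 ± 0.34 (adjusted p = 1.15e-06). The early activation antigen CD69 and the pattern receptor PTX3 had log2 differences of -5.11 ± 0.70 and -4.55 ± 0.57. Their treated levels also overlapped between the cell lines, with lower untreated levels in HL-60, of 0.187 and 0.342 CPM.

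IL1B, the fever cytokine interleukin 1 beta, moved against its list. It was at 0.103, 0.337 and 0.462 CPM in untreated and 7.25, 7.49 and 8.33 in treated NB-4, with only 5 and 13 reads over the 3 untreated and 3 treated HL-60 libraries. The log2 difference of 3.43 ± 1.17 (adjusted p = 0.0435) was lost in 7 of 12 fits that each left out a library. Without replicate 3 of treated HL-60, 12 genes of the list were called lower in NB-4 and its median log2 difference was -1.32.

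The list of chemokines and their receptors had the same direction. Of 18 genes of the list tested, 6 had a difference lower in NB-4 and 1, the chemokine receptor gene CXCR2, a difference higher in NB-4, beside 2.53% and 4.59% of all genes. Without replicate 3 of treated HL-60 the same counts were found and the median log2 difference was -0.989 in place of -1.61. The genes called lower included the receptor genes CXCR4 and CCR2, and CXCL8, which is also on the TNF and NF-kB list. The chemokine genes CCL1, CCL3, CCL20, CCL23, CXCL2 and CXCL11 were not called. CXCL8 encodes interleukin 8, the main attractant of neutrophils. It was at 15.3, 13 and 17.3 CPM in untreated and 420, 308 and 705 in treated HL-60, and at 14.7, 46.8 and 55.8 in untreated and 228, 277 and 287 in treated NB-4. It rose in both cell lines with no overlap between groups, and the log2 difference was -2.22 ± 0.46 (adjusted p = 0.00237). CXCL10, an attractant of T cells that interferon and NF-kB can both induce, had 0 reads in untreated HL-60 and 9.11, 5.78 and 17.6 CPM after etoposide. With 3 reads over the group as the limit that 0 reads allow, it was at least 210-fold higher after treatment, for counting error only. In NB-4 it was at 2.22, 2.30 and 3.47 CPM untreated and 1.95, 2.61 and 1.98 treated, which overlap. The chemokine receptor gene CXCR4 had a log2 difference of -1.74 ± 0.16 by another route, since it fell in NB-4 from 75.3 ± 13.4 to 25.1 ± 1.58 CPM and was at 256 ± 11.2 and 284 ± 28.7 in HL-60. With genes at 0 reads in a group set at their bound, the list's median log2 difference was -1.12 in place of -1.61, and that of the TNF and NF-kB list -1.89 in place of -2.04.

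**Figure D2:**
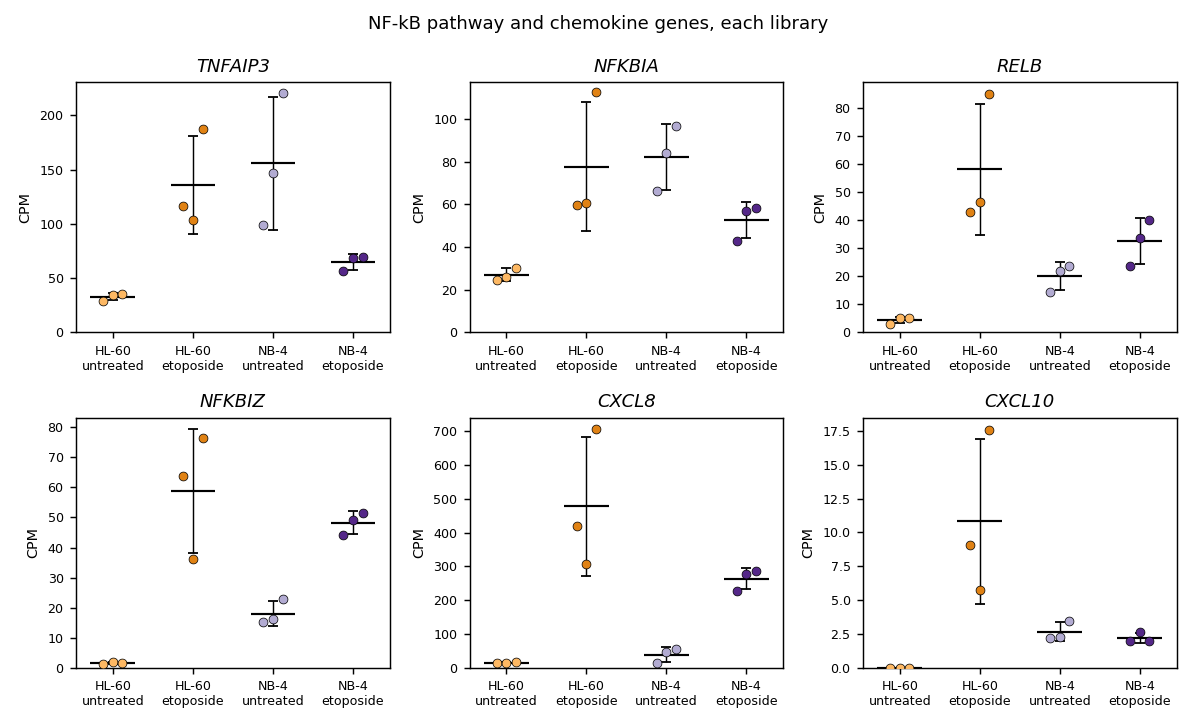
CPM of 6 genes in each library, with points for the 3 libraries of a group, a bar for the mean and whiskers for 1 SD. In HL-60 each gene's treated libraries lie above its untreated ones, while in NB-4 TNFAIP3 and NFKBIA go down and CXCL10 stays between 1.95 and 3.47 CPM.

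Promoter sequence was set beside the 3 lists that the description rests on. RefSeq promoters of the GRCh38.p14 build were read for the 250 bases before each gene's start, and 10544 of the genes tested had one. A common form of the NF-kB site, GGG and TTTCC with any 2 bases between them, was found on either strand in 6 of 18 promoters of the TNF and NF-kB list (33.3%), against 2.03% of the promoters of genes tested and 1.73% of all 27305 promoters. The 6 genes were LTB, TNFAIP3, NFKBIA, NFKB1, BIRC3 and REL. The first 5 were called lower in NB-4, as were 14 of the 22 genes of the whole list and 2.53% of all genes. The core of the interferon-stimulated response element, 2 times GAAA with any 2 bases between, was in 13 of 24 promoters of the interferon-stimulated list (54.2%), against 2.38% of the promoters of genes tested and 3.07% of all. Of these 13 genes, 7 were called higher in NB-4, as were 12 of the 31 genes of the whole list and 4.59% of all genes. Whether a motif goes with the call within a list was not tested. CCAAT, the box bound by NF-Y, was in 15 of 18 promoters of the cholesterol list (83.3%), against 35.1% of genes tested and 33.0% of all, and it was found at like shares in the G2/M list (80.0%, with 0 genes called), the MHC list (80.0%) and the histones (90.9%). Such a match is a description of the sequence and not a site shown to be bound. In the lines that follow the matches to these motifs and to TATAAA are in capitals, on the strand of the gene or as the reverse complement, in promoters chosen after the values were seen, other than CXCL10.
TNFAIP3: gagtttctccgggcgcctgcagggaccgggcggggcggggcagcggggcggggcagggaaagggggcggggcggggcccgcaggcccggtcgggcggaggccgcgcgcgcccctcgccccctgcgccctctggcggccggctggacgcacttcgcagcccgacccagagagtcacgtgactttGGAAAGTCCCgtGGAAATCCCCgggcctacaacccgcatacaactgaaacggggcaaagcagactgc
NFKBIA: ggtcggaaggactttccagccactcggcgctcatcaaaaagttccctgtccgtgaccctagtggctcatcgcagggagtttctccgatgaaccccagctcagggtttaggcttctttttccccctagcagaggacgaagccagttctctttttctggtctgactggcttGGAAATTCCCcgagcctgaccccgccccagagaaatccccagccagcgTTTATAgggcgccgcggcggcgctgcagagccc
CXCL10: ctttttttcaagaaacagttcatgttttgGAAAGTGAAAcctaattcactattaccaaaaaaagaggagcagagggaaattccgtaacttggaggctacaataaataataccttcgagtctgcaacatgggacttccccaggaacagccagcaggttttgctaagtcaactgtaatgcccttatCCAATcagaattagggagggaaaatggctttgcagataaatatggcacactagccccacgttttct
IFI6: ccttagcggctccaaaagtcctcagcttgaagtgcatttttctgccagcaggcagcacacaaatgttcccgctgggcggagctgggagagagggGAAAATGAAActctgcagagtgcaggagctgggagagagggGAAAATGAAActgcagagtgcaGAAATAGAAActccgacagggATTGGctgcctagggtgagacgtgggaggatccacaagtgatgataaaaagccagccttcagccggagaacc
ISG15: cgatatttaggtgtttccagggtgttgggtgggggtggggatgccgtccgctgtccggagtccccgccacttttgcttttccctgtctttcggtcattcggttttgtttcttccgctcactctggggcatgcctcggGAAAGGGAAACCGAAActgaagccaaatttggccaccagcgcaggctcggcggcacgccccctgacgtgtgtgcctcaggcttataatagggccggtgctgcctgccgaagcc
HMGCS1: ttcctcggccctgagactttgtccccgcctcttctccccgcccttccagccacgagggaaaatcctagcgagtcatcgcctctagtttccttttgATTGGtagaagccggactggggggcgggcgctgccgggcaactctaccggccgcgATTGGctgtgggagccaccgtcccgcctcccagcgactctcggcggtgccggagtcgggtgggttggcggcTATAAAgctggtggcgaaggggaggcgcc
The TNFAIP3 promoter (chr6:137867009-137867258, plus strand) holds 2 matches to the NF-kB form, 67 and 55 bases before the start, both on the reverse strand. That of NFKBIA (chr14:35404750-35404999, minus strand) holds 1 such match 81 bases before the start and a TATAAA match at 33. That of CXCL10 (chr4:76023498-76023747, minus strand) has no match to the NF-kB form in this window, 1 to the interferon form and 1 CCAAT. Other forms of the NF-kB site were not searched, so a promoter without a match can still hold one. IFI6 (chr1:27672193-27672442, minus strand) has 3 matches to the interferon form and 1 CCAAT, and ISG15 (chr1:1013247-1013496, plus strand) has 2 that overlap. HMGCS1 (chr5:43313413-43313662, minus strand) has 2 CCAAT matches on the reverse strand and 1 TATAAA. Among the other promoters set by the rule for the largest differences, those of LDLRAD4 and IGSF10 held none of the 7 motifs searched, YBX2 held 2 CCAAT, ZNF595 3 CCAAT and TREM1 1 TTTGAA. TGACGTCA and TGANTCA, the sites of CREB and AP-1, were in 2.87% and 3.85% of the promoters of genes tested.

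Many interferon-stimulated genes rose further in NB-4 than in HL-60. These genes encode antiviral proteins and are switched on after interferon is sensed. Of 31 tested, 23 rose in NB-4 and 7 in HL-60, beside 13.2% and 5.90% of all genes, and 0 fell in either. The difference was higher in NB-4 for 12, against 4.59% of all genes, and lower for 1, MX2. The median log2 fold change was 1.82 in NB-4 and 0.43 in HL-60.

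OAS1, which makes the second messenger that activates RNase L, was at 0.865, 1.21 and 1.05 CPM in untreated and 2.95, 3.25 and 2.41 in treated HL-60. NB-4 had 1.86, 2.13 and 2.83 CPM untreated and 29.4, 28.9 and 39.7 treated. It rose in both cell lines without overlap, and the log2 difference was 2.39 ± 0.33 (adjusted p = 7.32e-05). IFI6, a small membrane protein of the endoplasmic reticulum, was at 3.20, 3.32 and 2.93 CPM in untreated and 5.38, 8.77 and 4.95 in treated HL-60. In NB-4 it was at 4.65, 4.66 and 5.55 CPM untreated and 36.8, 41.7 and 54.2 treated. Its log2 difference was 2.15 ± 0.29.

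SAMD9L, an antiviral inhibitor of translation, had the largest difference of the list past 1 CPM in every group. It was at 2.53, 1.91 and 3.64 CPM in untreated and 21.6, 16.2 and 23.5 in treated NB-4. In HL-60 it was already at 20.6, 20.4 and 16.5 CPM untreated and at 21.5, 14 and 16.5 treated, which overlap. The treated NB-4 libraries overlapped the HL-60 libraries, with 2 of the 3 above all of them, and the log2 difference was 3.07 ± 0.28 (adjusted p = 1.28e-06). IFIT3, which binds viral RNA with its relatives, showed the other pattern, with 5.30 ± 0.45 and 5.53 ± 0.59 CPM in HL-60 and 5.82 ± 0.48 and 24.0 ± 4.31 in NB-4. Untreated levels overlapped between the cell lines, and treated levels did not. ISG15, a ubiquitin-like modifier, had a log2 difference of 1.57 ± 0.32. PARP9, an ADP-ribosyltransferase partner of the ligase DTX3L and one of the genes the study examined, was at 13.8 ± 0.55 and 20.4 ± 1.99 CPM in HL-60 and at 11.5 ± 1.99 and 38.0 ± 1.78 in NB-4, with a log2 difference of 1.16 ± 0.17.

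IRF7, the transcription factor that amplifies interferon genes, rose in both, by 2.45 and 2.20 on the log2 scale, with a log2 difference of 0.25 ± 0.44 (adjusted p = 0.75). MX2, a GTPase that blocks retroviruses, was at 148 ± 9.44 CPM in untreated and 91.0 ± 5.72 in treated NB-4 and at 2.59 ± 0.49 and 3.93 ± 1.12 in HL-60, and its log2 difference was -1.29 ± 0.23. IFI44, with 35 reads in treated NB-4 and 4 or fewer in each other group, lost its call when the replicate number was added as a block (11 of the 31 genes were then called higher in NB-4), in the fit of 60 libraries and in 9 of 12 fits that each left out a library. Without replicate 3 of treated HL-60 or replicate 1 of untreated NB-4, 10 of the 31 genes were called higher.

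Genes of amino acid stress also differed. ATF4 is translated when amino acids run short or the endoplasmic reticulum is loaded, and it switches on genes of serine and asparagine synthesis and of cystine import. Of 20 genes tested, 6 had a difference higher in NB-4, beside 4.59% of all genes, and 0 a difference lower. Without replicate 2 of untreated HL-60 5 were higher and 0 lower, and without replicate 1 of untreated NB-4 5 were higher and 1 lower. In NB-4 7 rose and in HL-60 3, beside 13.2% and 5.90% of all genes, and 0 fell in either. The median log2 fold change was 0.63 in NB-4 and -0.20 in HL-60.

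ASNS, asparagine synthetase, was at 29.2, 47.4 and 58.1 CPM in untreated and 150, 143 and 144 in treated NB-4. In HL-60 it was at 180, 279 and 189 CPM untreated and 121, 112 and 122 treated. Each cell line's groups were apart, in opposite directions, although the log2 fold change of -0.87 in HL-60 was short of 2-fold. The log2 difference was 2.57 ± 0.25 (adjusted p = 2.45e-06). PHGDH, the first enzyme of serine synthesis, was at 84.9, 111 and 90.2 CPM in untreated and 233, 262 and 262 in treated NB-4. Levels in HL-60 were 314, 459 and 333 CPM untreated and 215, 243 and 229 treated, with a log2 difference of 2.09 ± 0.18. For both genes the treated levels of the cell lines lay closer together than the untreated ones.

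SLC7A11, the cystine importer, and SESN2, a leucine sensor that is also on the damage response list, both rose in NB-4 only, each with a log2 difference of 1.87, with SEs of 0.21 and 0.23. PSAT1, the next enzyme of serine synthesis, had a log2 difference of 1.37 ± 0.15 from fold changes short of 2-fold in both cell lines, 0.60 in NB-4 and -0.76 in HL-60 on the log2 scale. Other genes of the list were not called for the difference. DDIT3, the stress factor CHOP, rose in both, by 1.84 and 1.15 on the log2 scale. TRIB3, a pseudokinase target of ATF4, rose in HL-60, where its log2 fold change was 1.52 against 0.90 in NB-4. ATF4 itself was at 344 ± 48.2 CPM in untreated and 329 ± 31.3 in treated NB-4 and at 801 ± 79.1 and 540 ± 21.1 in HL-60, and its log2 difference of 0.50 ± 0.14 (adjusted p = 0.0181) had the direction of the list but was short of 2-fold. ATF5, a related factor outside the list that was chosen after its values were seen, was at 26.4, 38.3 and 27.9 CPM in untreated and 201, 206 and 221 in treated NB-4, with 571 ± 146 and 536 ± 83.2 in HL-60. Its log2 difference was 2.85 ± 0.23 (adjusted p = 4.49e-07).

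**Figure D3:**
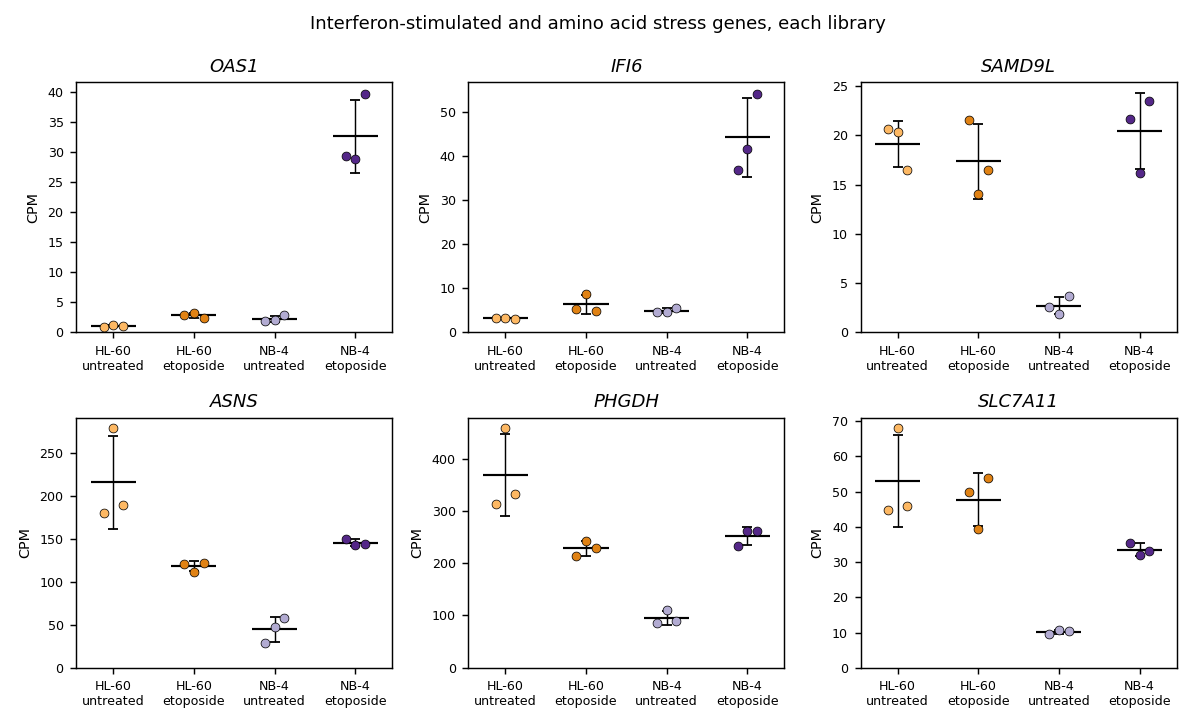
CPM of 3 interferon-stimulated genes (top) and 3 genes of amino acid stress (bottom) in each library, with points for libraries, bars for means and whiskers for 1 SD. The treated NB-4 libraries lie above the untreated ones for all 6 genes, and for ASNS and PHGDH the treated HL-60 libraries lie below the untreated ones.

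Several genes of cholesterol synthesis fell further in NB-4 than in HL-60. The enzymes of the pathway are switched on together by SREBP-2 when sterols are low and are held back by INSIG1. Of 23 tested, 14 fell in NB-4 and 2 in HL-60, beside 4.74% and 1.33% of all genes. The difference was lower in NB-4 for 6 and higher for 1, beside 2.53% and 4.59% of all genes, with a median log2 difference of -0.77. Without replicate 3 of treated HL-60 the difference was lower in NB-4 for 10, and scaled by library size alone for 4.

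HMGCS1, which makes the HMG-CoA that feeds the pathway, was at 564, 656 and 935 CPM in untreated and 69.6, 64.4 and 72.4 in treated NB-4. In HL-60 it was at 839, 594 and 747 CPM untreated and 509, 471 and 244 treated. Neither pair of groups overlapped, and the log2 fold change was -3.38 in NB-4 and -0.83 in HL-60. It differed by a log2 value of -2.55 ± 0.30 (adjusted p = 1.57e-05). INSIG1 was at 573, 540 and 715 CPM in untreated and 43.9, 42.9 and 57.4 in treated NB-4, and it fell in HL-60 too, from 528, 421 and 488 to 253, 252 and 127. The log2 difference was -2.48 ± 0.27. DHCR7, a last step of synthesis, had a log2 difference of -1.82 ± 0.27 and MSMO1, a sterol demethylase step, one of -1.36 ± 0.30.

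SQLE, squalene epoxidase, fell in NB-4 from 138 ± 9.54 to 33.3 ± 3.03 CPM and was at 205 ± 34.3 and 105 ± 25.9 in HL-60, a log2 difference of -1.09 ± 0.21 that lost its call with scaling by library size alone and in 3 of 12 fits that each left out a library. STARD4, a sterol carrier, had a log2 difference of -1.03 ± 0.22, just past 2-fold. TM7SF2, a sterol reductase, was the exception, at 28.6 ± 6.02 and 84.1 ± 4.72 CPM in NB-4 and 22.9 ± 0.99 and 30.7 ± 7.40 in HL-60. The fatty acid desaturase genes SCD and FADS2, which SREBP also regulates and which were chosen after their values were seen, had log2 differences of -1.38 ± 0.21 and -1.5 ± 0.21. SCD was at 1954, 1869 and 2113 CPM in untreated and 397, 392 and 430 in treated NB-4, and at 2492, 2134 and 2376 and then 1428, 1475 and 828 in HL-60.

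MYC and MYB fell in NB-4 and not by 2-fold in HL-60. MYC, the transcription factor that drives ribosome synthesis and that HL-60 carries in many copies, was at 741, 631 and 713 CPM in untreated and 169, 192 and 158 in treated NB-4. The HL-60 values were 960, 1097 and 1007 CPM untreated and 685, 784 and 634 treated. The groups did not overlap in either cell line. NB-4 minus HL-60 gave a log2 difference of -1.46 ± 0.14 (adjusted p = 1.63e-06). MXD4, which competes with MYC for its partner MAX, had a log2 difference of 1.23 ± 0.14. Of 29 genes of the MYC network and ribosome biogenesis, 10 fell in NB-4 and 0 in HL-60, beside 4.74% and 1.33% of all genes. But only 2 of them had a difference lower in NB-4, MYC and the ribosome factor RRP12 (log2 difference -1.02 ± 0.16), beside 2.53% of all genes. RRP12 lost its call under 6 other processing settings and in 5 of 12 fits that each left out a library. With no fold minimum, 19 of the 29 passed as lower in NB-4 and 1 as higher, against 1894 and 1389 of all genes, and the median log2 difference was -0.50. Without replicate 3 of untreated NB-4, 6 of the 29 were called lower.

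MYB, a factor of immature blood cells, was at 585, 552 and 584 CPM in untreated and 168, 154 and 157 in treated NB-4. In HL-60 it was at 548, 585 and 536 CPM untreated and 425, 357 and 352 treated. Untreated levels overlapped between the cell lines and treated levels did not, with a log2 difference of -1.28 ± 0.12. CEBPD, a factor of later myeloid stages, fell in NB-4 from 60.9 ± 5.37 to 18.7 ± 1.87 CPM and was at 11.2 ± 3.74 and 14.7 ± 2.68 in HL-60. BCL6, a repressor, had a log2 difference of 3.12 ± 0.33 at levels under 6 CPM.

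Several granule protein genes fell further in NB-4 than in HL-60. They mark the promyelocyte stage and are shut off as neutrophils mature. Of 17 tested, 10 fell in NB-4 and 3 in HL-60, beside 4.74% and 1.33% of all genes. The difference was lower in NB-4 for 6 and higher for 1, beside 2.53% and 4.59%. Scaled by library size alone it was lower for 4 and higher for 1. PRTN3, a serine protease, was at 164, 170 and 91.3 CPM in untreated and 9.19, 13.6 and 10.3 in treated NB-4. HL-60 had 367, 321 and 394 CPM untreated and 59.4, 143 and 76.9 treated. It fell in both without overlap, with a log2 difference of -1.73 ± 0.36. SRGN, the proteoglycan that packs granules, was at 3156, 2756 and 2962 CPM in untreated and 754, 740 and 694 in treated NB-4, while in HL-60 the untreated range of 701 to 990 overlapped the treated range of 622 to 824. Its log2 difference was -1.69 ± 0.17 (adjusted p = 2.98e-06). MPO fell in both, by 1.94 in NB-4 and 1.22 in HL-60 on the log2 scale, and its log2 difference of -0.72 ± 0.19 was short of 2-fold. MMP9, a gelatinase of later granules, had a log2 difference of -3.75 ± 1.09 from 4 reads in untreated HL-60. It did not fall in NB-4, where its levels of 229 CPM untreated and 384 treated were far above the 1.66 CPM of treated HL-60. It lost its call under limma voom and without replicate 3 of treated HL-60. SERPINB1, an inhibitor of the granule proteases, rose in NB-4 from 17.8 ± 0.45 to 44.9 ± 3.80 CPM, with a log2 difference of 1.01 ± 0.13.

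**Figure D4:**
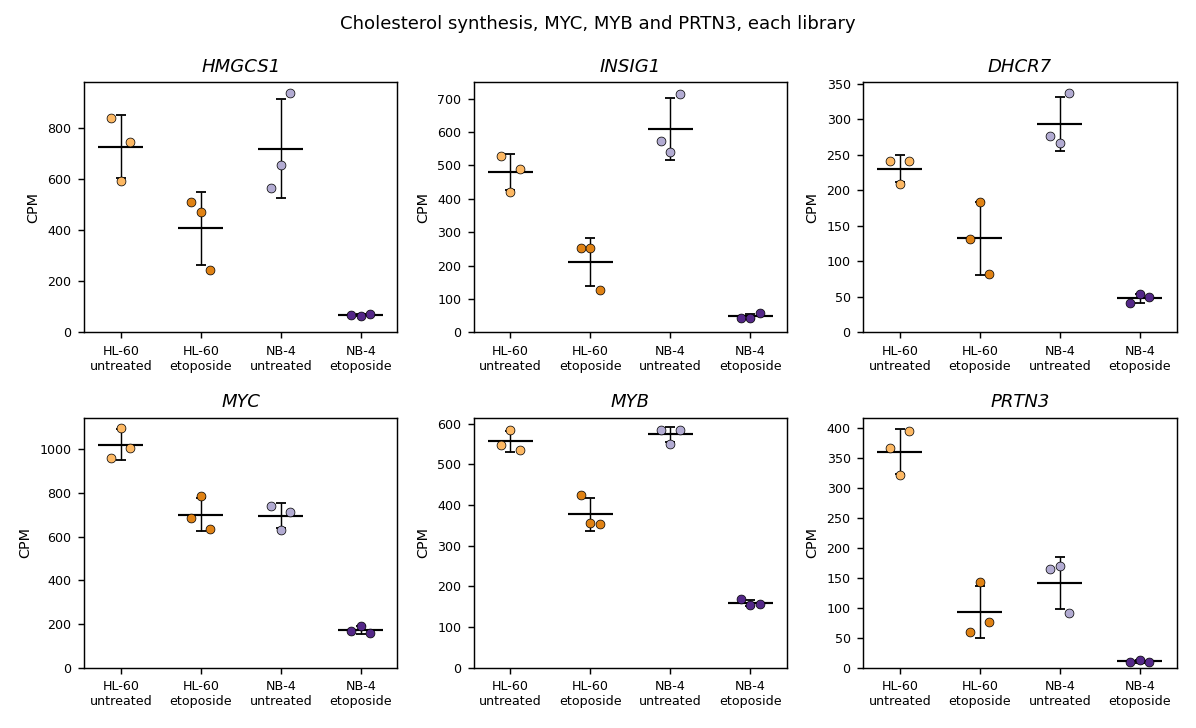
CPM of 3 genes of cholesterol synthesis (top) and of MYC, MYB and PRTN3 (bottom) in each library, with points for libraries, bars for means and whiskers for 1 SD. All 6 genes lie lower in treated than in untreated NB-4 libraries without overlap, and replicate 3 is the lowest treated HL-60 library for the 3 genes of the top row.

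Of 24 myeloid surface receptors tested, 16 rose in NB-4 and 10 in HL-60, beside 13.2% and 5.90% of all genes, and 0 fell. The difference was higher in NB-4 for 6 and lower for 3, beside 4.59% and 2.53% of all genes. CD86, a costimulatory ligand of T cells, was at 0.0517, 0.0561 and 0.116 CPM in untreated and 9.24, 8.68 and 7.53 in treated NB-4. In HL-60 it was at 2.44, 3.12 and 2.49 CPM untreated and 9.26, 10.1 and 7.78 treated. Treated levels overlapped and untreated levels did not, and the log2 difference was 4.99 ± 0.42 (adjusted p = 7.34e-07). C5AR1, the receptor for the complement fragment C5a, rose in NB-4 from 4.85 ± 0.72 to 39.4 ± 2.30 CPM and was at 2.95 ± 1.02 and 2.06 ± 0.14 in HL-60. The endotoxin receptor TLR4 had a log2 difference of 1.80 ± 0.20. CLEC7A, the receptor for fungal glucan, had 0 reads in untreated NB-4 and 97 in treated, at least 29.7-fold higher. On the other side, TREM1, a receptor that amplifies inflammation, had 0 reads in untreated and 66 in treated HL-60, at least 20.8-fold higher, and rose in NB-4 from between 3.41 and 6.36 to between 10.5 and 12.6 CPM.

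The complement list and the NADPH oxidase list went both ways. Complement component C3 rose in both cell lines with a log2 difference of -2.79 ± 0.56, and C5 rose in both with 1.56 ± 0.32. CD55, which protects cells from complement, had a log2 difference of -1.59 ± 0.16 from fold changes short of 2-fold, 0.99 in HL-60 and -0.60 in NB-4. In the oxidase, which makes superoxide in phagocytes, the membrane subunit gene CYBB rose in HL-60 from 1.60 ± 0.74 to 11.6 ± 3.20 CPM and stood at 250 ± 44.4 and 247 ± 13.8 in NB-4. The cytosolic subunit gene NCF1 had a log2 difference of 1.69 ± 0.32, which is uncertain because its reads can be shared with near-identical pseudogenes.

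In the damage response and cell death lists the called genes were 2 of 23, 1 of 14 and 3 of 24, beside 7.12% of all genes. Of 23 damage response genes tested, 3 rose in NB-4 and 2 in HL-60, beside 13.2% and 5.90% of all genes. The difference was higher in NB-4 for 2, SESN2 and BTG2, beside 4.59% of all genes. The median log2 fold changes were 0.29 and 0.34. CDKN1A, the kinase inhibitor p21 that stops the cell cycle, was at 0.254, 0.252 and 0.166 CPM in untreated and 3.78, 2.99 and 5.51 in treated HL-60. Levels in NB-4 were 1.45, 2.75 and 4.39 CPM untreated and 31.5, 40.6 and 45.5 treated. It rose in both cell lines, and the log2 difference of -0.37 ± 0.61 did not pass (adjusted p = 0.738). BTG2, an antiproliferative factor, rose in both, with a log2 difference of 1.44 ± 0.39. MDM2, a ubiquitin ligase, had log2 fold changes of -0.32 in NB-4 and 0.16 in HL-60.

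Of 14 BCL2 family genes only BMF, a BH3-only activator of apoptosis, was called for the difference. It rose in NB-4 from 16.4 ± 3.51 to 72.4 ± 9.45 CPM and was at 22.6 ± 3.38 and 37.4 ± 0.35 in HL-60. Its log2 difference was 1.42 ± 0.20. With no fold minimum, 4 of the 14 passed as lower in NB-4 and 1 as higher, against 1894 and 1389 of all genes. The list's median log2 difference was -0.15. Of 24 death receptor and caspase genes, CASP1, the caspase that matures interleukin 1 beta, had a log2 difference of 1.48 ± 0.18 and TNFSF10, the death ligand TRAIL, one of 1.13 ± 0.20. BIRC3, an inhibitor of apoptosis and NF-kB target, had one of -1.28 ± 0.27.

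Genes of DNA replication, mitosis and repair had no called difference. This held for 34 S phase genes, 30 G2/M genes, 24 genes of homologous recombination and the Fanconi pathway, and 11 drug target and efflux genes, by edgeR, DESeq2 and limma voom alike. At an unadjusted p under 0.05 in edgeR's test, 23, 12, 10 and 6 genes of these lists differed, beside 5110 of all 14864 genes. With no fold minimum, edgeR passed 15 S phase genes as lower in NB-4 and 1 as higher, beside 1894 and 1389 of all genes. The S phase list had a median log2 difference of -0.42. The same setting passed 3 G2/M genes as lower and 6 as higher. For homologous recombination and the Fanconi pathway it passed 7 and 1, and for drug targets and efflux 3 and 0. TOP2A, the target of etoposide in dividing cells, was at 835, 786 and 739 CPM in untreated and 669, 567 and 511 in treated HL-60, and at 679, 551 and 600 and then 666, 522 and 558 in NB-4. Its groups overlapped in NB-4, and the log2 difference was 0.37 ± 0.15 (adjusted p = 0.101). TOP2B, the form found also in resting cells, had log2 fold changes of -0.88 in NB-4 and -0.52 in HL-60.

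Of 19 genes that the study examined, MYC and PARP9 were called, beside 7.12% of all genes. The lowest and highest of the other log2 differences were -0.999 ± 0.35 for BCL2A1, a BCL2 relative induced by NF-kB, and 0.64 ± 0.12 for the deacetylase HDAC1, both past an adjusted p of 0.05 (0.0485 and 0.00136) without a 2-fold difference. Replication-dependent histone genes have messages that mostly lack a poly(A) tail. Of 11 tested, 5 had a difference higher in NB-4, at low levels, beside 4.59% of all genes. H2AC6 was at 1.65, 1.63 and 0.809 CPM in untreated and 4.02, 4.41 and 3.58 in treated NB-4, and it fell in HL-60. Of the immediate early factors, 2 were higher (FOSB and KLF6) and 3 lower (KLF4, FOSL1 and ATF3) of 22, beside 4.59% and 2.53% of all genes. The count of lower ones was 1 without replicate 3 of treated HL-60, without replicate 1 of untreated HL-60, without replicate 1 or 2 of treated NB-4 and with scaling by library size alone. It was 5 without replicate 2 of untreated HL-60 or replicate 1 of untreated NB-4, and KLF4 lost its call in 7 of the 12 fits without a library. ATF3, a stress factor, rose in both with a log2 difference of -1.07 ± 0.36. The lists of autophagy, NRF2 targets and MHC genes held 1, 1 and 2 called genes of 27, 15 and 13, beside 7.12% of all genes.

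The largest differences of all were in genes that 1 cell line hardly expressed. The 12 protein-coding genes highest in NB-4 by the naming rule included IGSF10, LDLRAD4, XKR9, YBX2, ST14, RETREG1 and ITM2A, which were at 5.00 CPM or more in treated HL-60 and under 1 CPM in NB-4. IGSF10, for instance, was at 88.0 ± 2.18 and 78.7 ± 11.9 CPM in HL-60, had 0 reads in untreated NB-4 and 21 reads, or 0.321 CPM, in treated NB-4. In the other direction CTSH, the protease cathepsin H, was at 251 and 168 CPM in NB-4 and had 0 and 9 reads in HL-60. ZNF595 had 0 and 7 reads there. Of the 1059 called genes, 386 (36.4%) were under 5 CPM in every group and 30 (2.83%) had 0 reads in a group.

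Among 9379 genes at 5 CPM or more in a group of each cell line, a limit chosen after the values were seen, 372 (3.97%) were called, 178 higher and 194 lower in NB-4. The largest of these in NB-4, besides CD86 and SAMD9L, were PIK3R6, a regulatory subunit of PI3K gamma, ALOX5AP, which serves leukotriene synthesis, INHBE, IL32, ATF5 and CYP2E1. ALOX5AP was at 0.465, 0.281 and 0.809 CPM in untreated and 8.44, 8.82 and 7.72 in treated NB-4, against 43.1 ± 1.29 and 74.4 ± 11.3 in HL-60. The log2 difference was 3.21 ± 0.27. On the other side PDE4B, which breaks down cyclic AMP, fell in NB-4 from 63.4, 59.6 and 72.8 CPM to 10.7, 9.77 and 10.1 and was between 18.8 and 27.4 in the HL-60 libraries. Its log2 difference was -2.91 ± 0.18 (adjusted p = 3.04e-08). CYP1B1, a target of the aryl hydrocarbon receptor, was at 8.99, 10.1 and 12.4 CPM in untreated and 112, 107 and 121 in treated NB-4 and at 9.52 ± 1.72 and 16.7 ± 1.96 in HL-60. It too was named after its values were seen, with a log2 difference of 2.63 ± 0.19.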

How the data were processed

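RNA from HL-60 and NB-4 cells was sequenced in 12 libraries, 3 for each cell line and treatment, and groups were taken from the labels. The values used are read counts per gene that the authors deposited, as whole numbers without normalization. The submitters' processing notes name FastQC 0.11.5, STAR 2.5.3a and edgeR 3.20.1. From these counts, genes were kept with edgeR's filter (minimum count 10, total 15), scaled by TMM and fitted with edgeR 4.0.16 in R 4.3.3 by the quasi-likelihood test, with 4 group means and no block, on these 12 libraries. A gene was called at a Benjamini-Hochberg adjusted p of 0.05 and a change above 2-fold. CPM values use TMM-scaled library sizes. The limit for 0 reads was 3 reads over the 3 libraries of a group, for counting error only.

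The members and lists were chosen with earlier results of these data known. Named genes were up to 4 called genes of each list with the largest differences, the 12 protein-coding genes and the 3 others of each sign with the largest differences and at least 5 CPM in a group, up to 10 called in opposite directions, each gene the study examined, and TOP2A and TOP2B. Some genes that the rule or the lists hold are not reported here. Other genes were chosen after their values were seen. Promoters and motif matches came from RefSeq on GRCh38.p14, and genes without a promoter there were left out of the shares.

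For the same replicate number, untreated and treated deviations correlated at 0.423, 0.516 and 0.205 in NB-4 and at 0.204, -0.0151 and 0.0601 in HL-60. Unlike numbers gave values between -0.525 and 0.194 in NB-4 and between -0.239 and 0.16 in HL-60. Only replicates 1 and 2 of NB-4 thus stood well above the unlike pairs. On simulated data for this difference, over 14119 genes, 98 of 100 genes changed by a log2 value of 2 and 93 of 100 changed by 1.5 were called, with 7 false calls. The simulated libraries were independent, with the same spread for every gene and no response to etoposide in the unchanged genes. Only genes above a count limit were changed. These counts thus do not give the recovery or the false calls for genes at low levels or with shifts shared within a library. Alternatives were other scalings (RLE, library size), other filters, no fold minimum, the likelihood ratio test, DESeq2 1.42.0, limma 3.58.1 (voom), a replicate block, a fit of 60 libraries and leaving out each library. Tables and figures were made with Python 3.11.15, numpy 2.4.6, pandas 2.3.3 and matplotlib 3.10.9.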

Additional observations from a re-analysis of the deposited data

Results flagged for a closer look

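The response to etoposide differed between the cell lines for 1059 genes by the test of the difference itself. Of the genes called in both cell lines, 15 were called in opposite directions and for the difference, and the 12 of these given here are those of the naming rule and of the lists. Higher in NB-4 were ABAT (log2 difference 4.34), which breaks down the transmitter GABA, ASTL (4.34), ADPRHL1 (3.84), the lipid carrier APOE (3.81), the histone H2AC6 (3.01), the kinase RPS6KA2 (2.86) and the oxidase CYP2E1 (2.73). ABAT was at 3.20, 4.48 and 3.81 CPM in untreated and 1.66, 1.24 and 0.926 in treated HL-60, and at 0.258, 0.337 and 1.04 and then 3.89, 3.13 and 3.81 in NB-4. APOE and ASTL had 4 and 2 reads in treated HL-60.

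Lower in NB-4 were the RNA gene MIR3142HG (log2 difference -7.36), VIT (-5.71), TRGV10 (-4.82), TNFAIP3 (-3.30) and the fatty acid receptor GPR84 (-3.00). GPR84 was at 4.07, 4.63 and 5.75 CPM in untreated and 12.8, 9.91 and 15 in treated HL-60, and at 32.2, 38.0 and 48.1 and then 11.2, 14.4 and 13.3 in NB-4, so that the treated ranges overlapped. MIR3142HG had 1 read in untreated HL-60 and 114 in treated, against 725 and 421 in NB-4. VIT and TRGV10 had 0 reads in untreated and 8 and 5 in treated HL-60, at least 2.5-fold and 1.6-fold higher.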

How the results depend on the processing

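With genes limited to a mean of at least 5 CPM, 500 genes were called for the difference, 305 higher and 195 lower in NB-4, with 995 in NB-4 and 395 in HL-60. With no fold minimum these counts were 3283, 1389, 1894, 8355 and 4670. Leaving out 1 library at a time gave 900 to 1084 genes for the difference, 519 to 728 higher and 299 to 385 lower, 2621 to 2854 in NB-4 and 900 to 1118 in HL-60. RLE scaling, library size, no filter, the likelihood ratio test, DESeq2, limma voom and the fit of 60 libraries gave 962 to 1261 for the difference. The replicate block gave 1058 (685 higher, 373 lower), with 2649 in NB-4 and 1075 in HL-60, and of the named genes that were called only IFI44 lost its call under it. Of the lists, the block gave 15 lower in NB-4 for TNF and NF-kB, 5 for cholesterol synthesis and 11 higher for the interferon-stimulated genes. Of the 1059 genes called for the difference, between 821 and 921 kept their call when 1 library was left out. With the filter at a 5 CPM mean, which drops genes from the test, 446 did. Of 113 named genes called, 94 were called under every alternative that gave a value, 19 were lost under at least 1, 12 of them only without a library, and 0 changed sign. Most of these were named for large differences in these data, so their share does not stand for all called genes. The cause was not tested. Groups of 3 libraries and levels under 5 CPM limit the precision.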
